A study of Homo sapiens with 18 samples.

Results

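The MYC, MAX and MXD network was followed here through 9 genes: MYC, MAX, MXD1, MXD3, MXD4, MXI1, MNT, MLX and MLXIP. They were taken by NCBI Gene ID from the 28395 rows of the deposited table of read counts. All 9 passed the filter on low counts and were among the 15189 genes tested for shear. PC-3 is an androgen-independent line from human prostate cancer, and each library here comes from that single line. Detached PC-3 cells were either driven through a 5 mL syringe with a 30-gauge needle at 250 µL per second (sheared) or kept in suspension meanwhile (static). Both were then cultured on poly-HEMA, a coating that prevents attachment, in DMEM with insulin, transferrin, selenium and bovine albumin, and the cytosolic RNA obtained by detergent lysis was sequenced. The 6 groups were sheared and static cells at 3 h, sheared and static cells at 12 h, and sheared and static cells at 24 h, with 3 libraries each. At each time, equal replicate numbers mark a sheared and a static library made from a shared pool of cells. The 3 h libraries carry another batch date than the 12 h and 24 h libraries, so time and date cannot be told apart between 3 h and the later times, and no test was made across them other than of the shear effect itself.

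MYC is a basic helix-loop-helix leucine zipper activator that binds DNA only as a heterodimer with MAX. MAX also pairs with the MXD proteins, with MXI1 and with MNT, which recruit SIN3 and histone deacetylases to the same E-box sites and oppose MYC. A parallel branch is built on MLX, which pairs with MLXIP (MondoA), a glucose-responsive activator, and with some of the repressors. In many epithelial cancers MYC drives ribosome production, nucleotide synthesis and growth, while most MXD proteins and MXI1 are known from differentiating and resting cells.

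The libraries held 16400487 to 25862360 counts. All 7 listed markers of PC-3 cells, KRT8, KRT18, KRT19, EPCAM, CDH1, VIM and CD44, were present, of which VIM and CD44 do not mark epithelium alone. Their summed levels lay between 3532 and 10820 CPM (counts scaled to library size, here with TMM factors). The 7 listed genes of androgen-dependent prostate cells summed to 119 to 433 CPM. Of these KLK2 had 0 counts in every library and KLK3 stayed at or below 0.0680 CPM, whereas SLC45A3 (57.1 to 297 CPM), TMPRSS2 (31.5 to 106 CPM) and FOLH1 (11.3 to 41.3 CPM) were present. SLC45A3 and FOLH1 fell at 24 h (log2 fold change -0.39 each, edgeR adjusted p = 0.0345 and 0.0450), and both calls are lost without the 24 h pool 3 (0.0821 and 0.127). The 6 haematopoietic markers summed to 0.450 to 2.16 CPM in any library. The 8 fibroblast and endothelial markers summed to 45.6 to 47.4 CPM in sheared cells and 27.9 to 35.5 CPM in static cells at 3 h, to 64.1 to 80.0 CPM in sheared cells and 106 to 117.5 CPM in static cells at 12 h, and to 81.0 to 115 CPM in sheared cells and 110 to 144 CPM in static cells at 24 h. Most of that signal was COL1A1 and PECAM1. COL1A1 rose at 3 h (1.19, adjusted p = 0.000298) and PECAM1 fell at 12 h (-0.67, adjusted p = 0.0069). COL1A1 fell at 24 h (-0.48, adjusted p = 0.0471), a call that is lost without the 24 h pool 3 (-0.38, adjusted p = 0.211). LUM and PDGFRA reached 3.85 and 3.27 CPM, and PDGFRA fell at 12 h (-1.73, adjusted p = 0.0160). The other 4, COL1A2, DCN, VWF and CDH5, did not exceed 0.684 CPM in any library. The fibroblast and endothelial sum did not overlap between sheared and static cells at 3 h and 12 h and did at 24 h, and its part in the results below was not tested. The RNA is that of a bulk suspension, in which fewer cells of a type and less RNA per cell cannot be told apart. Sheared replicate 3 at 24 h stood apart from its group, with a TMM factor of 0.721 and 406 CPM of the nuclear-retained RNA NEAT1, against 163 and 43.5 CPM in the other sheared 24 h libraries, so the shear estimate of each network gene at 24 h is also given without that pool.

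MYC was the only one of the 9 genes whose transcript was higher in sheared cells at all 3 times by the test used here, edgeR's quasi-likelihood F test with Benjamini-Hochberg adjustment over all genes and a threshold of 0.05. At 3 h, 2 of the 9 genes rose, MYC and the repressor MNT, and none fell; across all genes tested 1.46% were called in either direction. At 12 h MYC alone rose and none fell, against a background of 10.8%. At 24 h MYC, MXD1 and MXD3 rose and MLXIP fell, against a background of 17.2%. The number of genes called was thus 2, 1 and 4 of 9 at 3 h, 12 h and 24 h, and the 12 h and 24 h shares are read against backgrounds that are themselves high. The shear effect differed between times in 1 of the 9 genes for 12 h minus 3 h, where 1.41% of all genes differed, in 3 for 24 h minus 3 h (5.89%) and in 1 for 24 h minus 12 h (0.665%, with 0.586% higher and 0.079% lower at 24 h). The median log2 fold change of the 9 genes, sheared over static, was 0.16 at 3 h, 0.12 at 12 h and 0.20 at 24 h, beside medians over all genes of 0.0054, -0.0079 and -0.021.

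**Figure D1:**
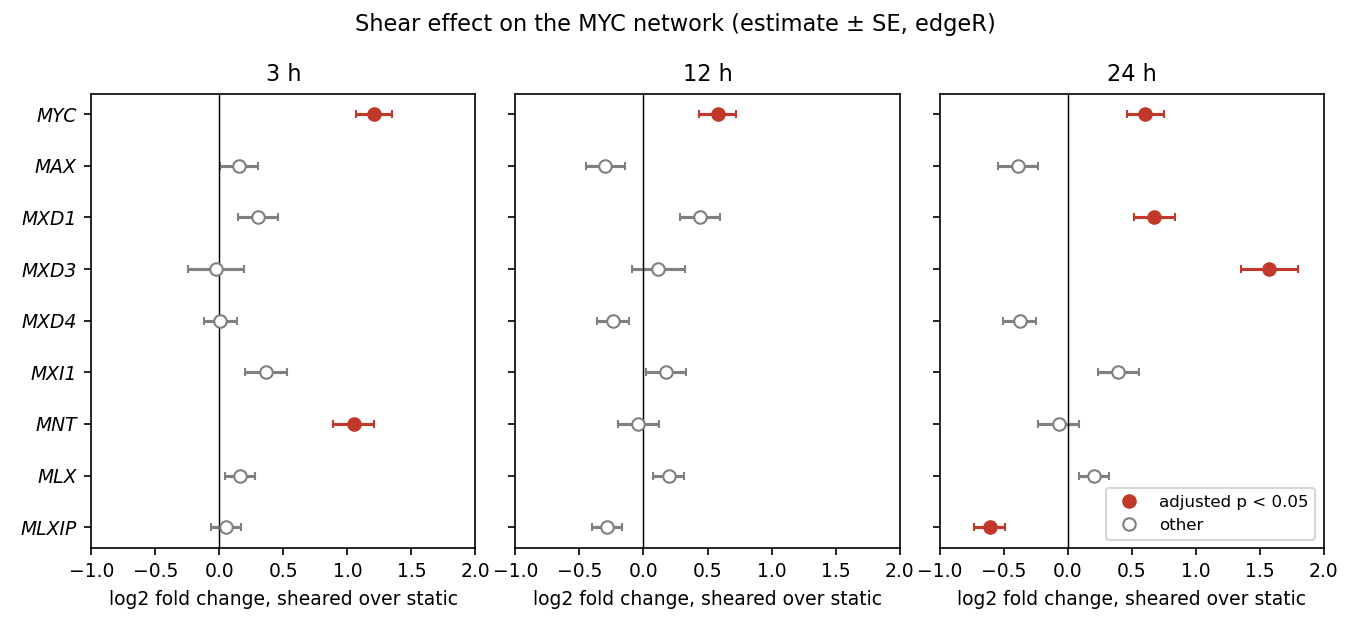
Estimated log2 fold change of sheared over static cells for each of the 9 genes at 3 h, 12 h and 24 h. Points are edgeR estimates from all 18 libraries with the pool as a block, bars are standard errors, and filled points have an adjusted p below 0.05. MYC lies right of 0 at each time (1.21, 0.58 and 0.61), MNT at 3 h (1.05) and MXD3 at 24 h (1.57) lie farther right than at their other times, and MLXIP lies left of 0 at 24 h (-0.61).

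The network's factors share a DNA site, the E-box CACGTG, and some of their own promoters carry it. RefSeq promoters of GRCh38.p14, from 250 bases before to 50 bases after an annotated start, were matched for 8 of the 9 genes, with 11 sequences in all; MYC is named only. The letters CACGTG, which read the same on both strands, were found in the promoters of 3 genes, MNT, MXD4 and MLX, and 7.26% of all 35116 promoters of this length hold them. They are printed here, 5′ to 3′ on the strand of the gene, because they show where the network's E-box letters lie before its own repressors and MLX, with the motif in capitals. The MXD3 and MLXIP promoters are shown because the shear effect on these genes differed between 24 h and 3 h, and they carry other motifs.
MNT (chr17:2401011-2401310, minus strand): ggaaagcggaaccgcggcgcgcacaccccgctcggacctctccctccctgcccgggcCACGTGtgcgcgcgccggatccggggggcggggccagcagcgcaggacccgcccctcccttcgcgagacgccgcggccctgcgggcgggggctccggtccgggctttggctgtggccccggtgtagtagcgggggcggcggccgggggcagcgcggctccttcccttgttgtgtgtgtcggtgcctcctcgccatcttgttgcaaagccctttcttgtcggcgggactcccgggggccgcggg
MXD4 (chr4:2262060-2262359, minus strand): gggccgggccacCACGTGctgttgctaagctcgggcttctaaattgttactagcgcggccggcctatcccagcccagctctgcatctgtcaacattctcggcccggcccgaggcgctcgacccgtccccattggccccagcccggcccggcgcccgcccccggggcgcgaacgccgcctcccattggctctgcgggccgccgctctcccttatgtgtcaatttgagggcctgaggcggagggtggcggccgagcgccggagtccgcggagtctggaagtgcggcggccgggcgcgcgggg
MLX (chr17:42566850-42567149, plus strand): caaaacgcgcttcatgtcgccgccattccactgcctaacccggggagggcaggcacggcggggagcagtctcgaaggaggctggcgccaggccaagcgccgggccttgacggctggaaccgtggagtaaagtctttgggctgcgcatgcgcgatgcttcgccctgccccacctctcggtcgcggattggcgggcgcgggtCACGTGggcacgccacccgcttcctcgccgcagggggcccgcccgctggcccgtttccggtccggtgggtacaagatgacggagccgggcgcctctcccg
MXD3 (chr5:177312703-177313002, minus strand): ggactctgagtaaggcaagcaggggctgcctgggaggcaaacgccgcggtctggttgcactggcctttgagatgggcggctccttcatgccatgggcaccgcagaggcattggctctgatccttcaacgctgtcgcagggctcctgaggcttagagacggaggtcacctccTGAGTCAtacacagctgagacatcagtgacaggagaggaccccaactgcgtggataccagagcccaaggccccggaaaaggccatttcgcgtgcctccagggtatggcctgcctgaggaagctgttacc
MLXIP (chr12:122078506-122078805, plus strand): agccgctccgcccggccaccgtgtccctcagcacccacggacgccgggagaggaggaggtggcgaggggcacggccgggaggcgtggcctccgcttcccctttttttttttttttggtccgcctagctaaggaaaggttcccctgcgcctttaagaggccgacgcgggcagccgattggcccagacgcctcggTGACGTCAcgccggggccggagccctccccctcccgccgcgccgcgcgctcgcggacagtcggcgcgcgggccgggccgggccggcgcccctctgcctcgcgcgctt
The E-box starts at position -193 in MNT, -238 in MXD4 and -50 in MLX, counted from the start site. The capitals in MXD3 are an AP-1 site, TGANTCA, at -79, a motif that 7.71% of promoters hold on either strand. Those in MLXIP are a cAMP response element, TGACGTCA, at -57, which 1.85% of promoters hold. No member's promoter held the carbohydrate response element, a tandem of spaced E-boxes (0.0057% of promoters), or the E2F letters TTTCGCGC (0.515%) and TTTGGCGC (0.652%), on either strand. No MYC promoter sequence was matched, so these absences cover only the 8 members with a promoter sequence. The carbohydrate response element was searched only as an exact tandem of the E-box letters, and forms with other letters were not searched. That tandem was held by 2 of 35116 promoters, so its absence here cannot show whether these genes have such an element. The E-box is contained in the carbohydrate response element, the other motifs do not contain each other, and a match only describes these letters in this window.

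MYC, the activator of the network, lies on chromosome 8 from 127735434 to 127741434 on the plus strand in the GENCODE 29 annotation. At 3 h its transcript had 324, 351 and 419.5 CPM in sheared cells, against 164, 172 and 136 CPM in static cells. At 12 h the values were 93.2, 95.0 and 118 CPM in sheared cells, against 69.9, 72.8 and 61.5 CPM in static cells. At 24 h they were 139.9, 89.7 and 130.4 CPM in sheared cells, against 88.3, 71.1 and 73.9 CPM in static cells. The sheared and static libraries did not overlap at any of the 3 times, and in all 9 pools the sheared library was the higher one. Genes whose sheared and static libraries did not overlap made up 18.8% of those tested at 3 h, 29.0% at 12 h and 15.1% at 24 h, and among the network there were 6, 3 and 2 of 9. The log2 fold change was 1.21 ± 0.14 at 3 h (SE; adjusted p = 8.63e-05), 0.58 ± 0.14 at 12 h (0.0153) and 0.61 ± 0.14 at 24 h (0.00761).

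By pool, the 3 h difference was 0.98, 1.02 and 1.62 on the log2 scale, so replicate 3 moved most; at 12 h the differences were 0.42, 0.38 and 0.94, and at 24 h 0.66, 0.34 and 0.82. The estimate at 3 h was the highest, but the test of its difference from the later ones did not pass the threshold: 12 h minus 3 h gave -0.63 ± 0.20 (SE; adjusted p = 0.148) and 24 h minus 3 h gave -0.60 ± 0.20 (adjusted p = 0.0937). The 12 h call is lost without any 1 of the 12 h pools (adjusted p = 0.0527 without pool 1, 0.0638 without pool 2 and 0.130 without pool 3) and without the pool as a block (0.0746). Without the 24 h pool 3, the 24 h estimate was 0.52 (adjusted p = 0.0446). In the authors' deposited tables the MYC log2 fold changes are 1.21, 0.58 and 0.64, with adjusted p-values of 3.99e-08, 0.0380 and 0.0110.

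**Figure D2:**
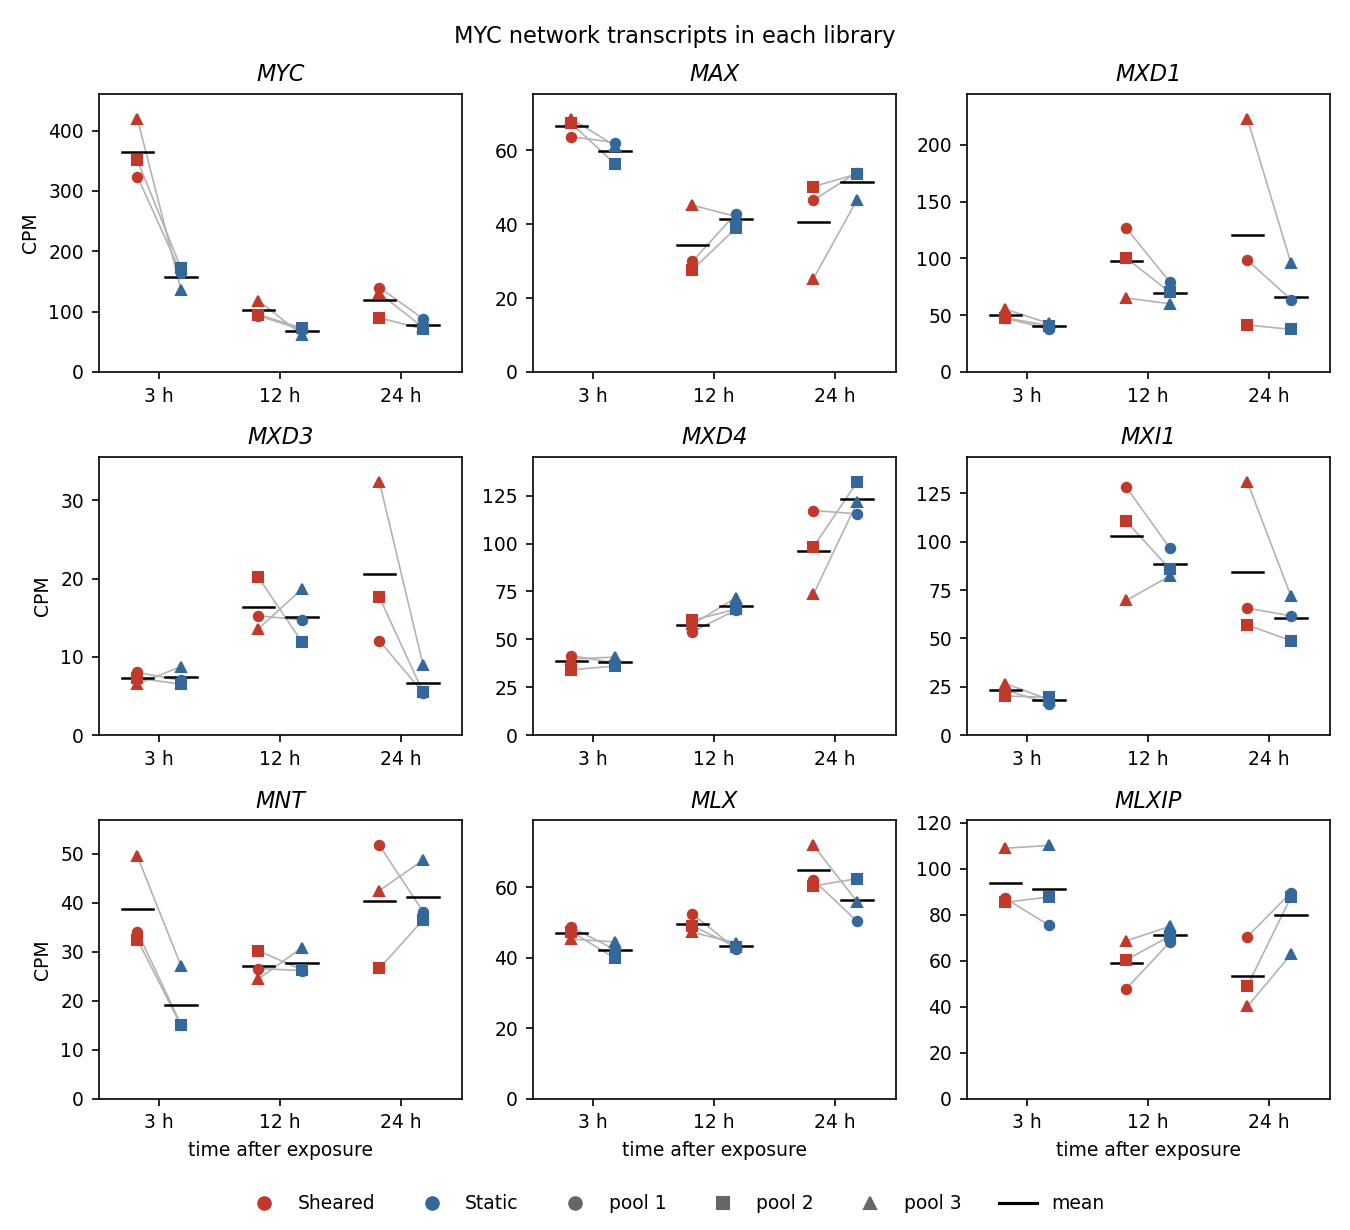
Level of each of the 9 transcripts in every library, in CPM on linear axes that start at 0. Red symbols are sheared and blue symbols static libraries, the symbol's shape gives the pool, grey lines join the libraries of 1 pool, and black bars are means of 3. All red MYC symbols lie above the blue ones within a time, those of MNT do so at 3 h only and those of MXD3 at 24 h only, and the triangle of sheared pool 3 at 24 h lies far from its group for MAX, MXD1 and MXI1.

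MAX is the shared partner through which MYC and its antagonists reach DNA. Its transcript had 63.6, 67.2 and 68.5 CPM in sheared cells, against 62.0, 56.3 and 61.2 CPM in static cells at 3 h, and those libraries did not overlap, although the estimate of 0.15 ± 0.15 (SE) did not pass the test (adjusted p = 0.867). At 12 h it had 29.9, 27.6 and 45.1 CPM in sheared cells, against 42.8, 38.9 and 42.0 CPM in static cells. At 24 h it had 46.5, 50.1 and 25.2 CPM in sheared cells, against 53.9, 53.5 and 46.6 CPM in static cells. Sheared replicate 3 was the high one at 12 h and the low one at 24 h, and the groups overlapped at both times. The estimates were -0.30 ± 0.15 at 12 h (adjusted p = 0.225) and -0.39 ± 0.15 at 24 h (adjusted p = 0.0912), and neither passed the test. Without the 24 h pool 3 the 24 h estimate was -0.14 (adjusted p = 0.636), and without the 24 h pool 2 it was called (-0.54, adjusted p = 0.0421).

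MNT, which pairs with MAX and also with MLX and represses E-box genes in growing as well as resting cells, lies on chromosome 17 from 2384060 to 2401118 on the minus strand. At 3 h its transcript had 34.1, 32.5 and 49.5 CPM in sheared cells, against 15.1, 14.9 and 27.1 CPM in static cells. Every sheared library was above every static one, with replicate 3 the highest in both groups, and the rise by pool was 1.17, 1.11 and 0.87 on the log2 scale. At 12 h the values were 26.6, 30.2 and 24.4 CPM in sheared cells, against 26.2, 26.3 and 30.9 CPM in static cells. At 24 h they were 51.7, 26.6 and 42.5 CPM in sheared cells, against 38.2, 36.5 and 48.7 CPM in static cells. The groups overlapped at both later times, and pools went in both directions.

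The log2 fold change of MNT was 1.05 ± 0.16 at 3 h (SE; adjusted p = 0.00109), -0.04 ± 0.16 at 12 h (0.906) and -0.07 ± 0.16 at 24 h (0.812). The 24 h value was 0.016 without the 24 h pool 3 (adjusted p = 0.974). MNT is thus one of the genes whose shear effect differed between times by the test of the difference. The effect at 12 h minus that at 3 h was -1.09 ± 0.23 (adjusted p = 0.0223), where 0.895% of all genes were called lower at 12 h, and the effect at 24 h minus that at 3 h was -1.12 ± 0.22 (adjusted p = 0.00487), where 2.81% were. The 3 h rise remained called without each pool in turn but not without the block (1.02, adjusted p = 0.0881). The 12 h minus 3 h difference is lost without any 1 of the 3 h pools (adjusted p = 0.122, 0.139 and 0.0573 without pool 1, 2 and 3) or of the 12 h pools (0.0706, 0.0587 and 0.0806), and the 24 h minus 3 h difference is lost only without the block (0.170) among the alternatives run. MNT shares 1065 exon bases, 21.3% of its length, with a gene on the opposite strand, AC006435.1, and the strand setting of the counts is not given in the sources used here.

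MXD3 is a MAX-binding repressor known from cells in S phase, and lies on chromosome 5 from 177301461 to 177312757 on the minus strand. It had the fewest counts of the 9 genes, 91 to 421 per library. At 3 h it had 8.03, 7.28 and 6.54 CPM in sheared cells, against 6.996, 6.54 and 8.76 CPM in static cells, and at 12 h 15.2, 20.2 and 13.6 CPM in sheared cells, against 14.7, 11.9 and 18.7 CPM in static cells. At 24 h it had 12.0, 17.6 and 32.3 CPM in sheared cells, against 5.45, 5.49 and 8.96 CPM in static cells. Groups overlapped at 3 h and 12 h, whereas at 24 h the lowest sheared library was above the highest static one, with differences by pool of 1.13, 1.66 and 1.84 on the log2 scale. Sheared replicate 3 was the highest library, and static replicate 3 was also the highest of its group.

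The log2 fold change of MXD3 was -0.02 ± 0.22 at 3 h (SE; adjusted p = 0.993), 0.12 ± 0.21 at 12 h (0.771) and 1.57 ± 0.22 at 24 h (1.27e-04), and without the 24 h pool 3 it was 1.44 (adjusted p = 0.000933). The effect at 24 h minus that at 3 h was 1.60 ± 0.31 (adjusted p = 0.00393), where 3.08% of all genes were called higher at 24 h, and it was called under every alternative run. The effect at 24 h minus that at 12 h was 1.46 ± 0.30 (adjusted p = 0.0327), with the background given above. That second difference is lost without 3 h pool 1 or 2 (adjusted p = 0.0563 and 0.0598), without 12 h pool 1 or 3 (0.138 and 0.203), without 24 h pool 2 or 3 (0.0615 and 0.0776) and without the block (0.667).

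MXD3 levels at 24 h and 12 h can be set side by side within each treatment. In static cells its level was 6.63 ± 2.01 CPM at 24 h, against 15.1 ± 3.42 CPM at 12 h (SD, n = 3 each), and sheared cells had 20.6 ± 10.5 CPM at 24 h, against 16.3 ± 3.42 CPM at 12 h. MXD3 shares 731 of its 3292 exon bases (22.2%) with PRELID1 on the opposite strand, and PRELID1 is the more abundant gene, with 67123 counts over all libraries against 4206 for MXD3. PRELID1 itself had 192, 224 and 277 CPM in sheared cells, against 179, 168 and 179.5 CPM in static cells at 24 h, and its log2 fold change was 0.27 at 3 h (adjusted p = 0.477), 0.57 at 12 h (0.00641) and 0.38 at 24 h (0.0355). The part of PRELID1 reads in the MXD3 counts was not tested.

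MXD1, the founding MXD repressor and a marker of differentiating cells, lies on chromosome 2 from 69897688 to 69942945 on the plus strand. At 3 h it had 47.2, 47.8 and 55.4 CPM in sheared cells, against 38.1, 40.8 and 42.8 CPM in static cells, without overlap. At 12 h it had 126, 100.4 and 65.2 CPM in sheared cells, against 79.1, 70.0 and 60.1 CPM in static cells. At 24 h it had 98.5, 41.4 and 223 CPM in sheared cells, against 63.8, 37.6 and 95.6 CPM in static cells, where both libraries of pool 2 were low and both of pool 3 high. The sheared library was the higher one in all 9 pools. The log2 fold change was 0.30 ± 0.16 at 3 h (SE; adjusted p = 0.616), 0.44 ± 0.16 at 12 h (0.0828) and 0.67 ± 0.16 at 24 h (0.00802).

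Only the 24 h value of MXD1 passed the test with all 18 libraries, and that call is lost without the 24 h pool 3 (0.41, adjusted p = 0.0869), without the block (0.88, adjusted p = 0.247) and in the 6 libraries of 24 h alone (adjusted p = 0.0727). Its 12 h value is called without the 24 h pool 2 (0.44, adjusted p = 0.0291) or pool 3 (0.44, adjusted p = 0.0120). The nuclear-retained RNA NEAT1 had 163, 43.5 and 406 CPM in sheared cells, against 141, 77.6 and 152 CPM in static cells at 24 h, and thus stood in the same order of libraries as MXD1 within each group. The part of nuclear RNA in the MXD1 values was not tested. None of the differences of the MXD1 effect between times passed the test, with adjusted p-values of 0.390 to 0.856. The authors' deposited table gives 0.84 for MXD1 at 24 h with an adjusted p of 0.273.

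MXI1, another MAX-binding repressor, had 23.4, 20.3 and 26.7 CPM in sheared cells, against 16.4, 19.6 and 18.5 CPM in static cells at 3 h. Those groups did not overlap, but the estimate of 0.37 ± 0.16 (SE) did not pass the test (adjusted p = 0.487). At 12 h it had 128, 110.4 and 69.6 CPM in sheared cells, against 96.6, 85.8 and 82.3 CPM in static cells, and at 24 h 65.7, 56.9 and 131 CPM in sheared cells, against 61.7, 48.9 and 71.8 CPM in static cells. As with MXD1, sheared replicate 3 was the low one at 12 h and the high one at 24 h, and the groups overlapped. The estimates were 0.18 ± 0.16 at 12 h (adjusted p = 0.511) and 0.40 ± 0.16 at 24 h (adjusted p = 0.0968). The 24 h estimate was 0.17 without the 24 h pool 3 (adjusted p = 0.558).

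MXD4, the MAX-binding repressor with an E-box near the far end of its promoter window, had 41.6, 34.2 and 39.8 CPM in sheared cells, against 37.7, 36.1 and 40.8 CPM in static cells at 3 h. At 12 h it had 54.1, 59.9 and 57.9 CPM in sheared cells, against 65.3, 65.8 and 71.8 CPM in static cells, with every sheared library below every static one. At 24 h it had 117, 98.2 and 73.5 CPM in sheared cells, against 116, 132 and 122 CPM in static cells, where sheared replicate 1 lay within the static range. The estimates were 0.01 ± 0.13 at 3 h (SE; adjusted p = 0.998), -0.24 ± 0.13 at 12 h (0.246) and -0.38 ± 0.13 at 24 h (0.0506), and none passed the test. The 24 h value turned on single pools, at -0.58 and called without the 24 h pool 1 (adjusted p = 0.0101) and at -0.19 without the 24 h pool 3 (adjusted p = 0.430). It was also called with no filter on low counts (-0.38, adjusted p = 0.0332). The MXD repressors thus did not move as a group: at 24 h MXD3 and MXD1 were called higher, and MXI1 and MXD4, at 0.40 and -0.38, were not called.

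MLX, the MAX-like partner of the glucose-responsive branch, had 48.6, 47.4 and 45.2 CPM in sheared cells, against 42.3, 39.8 and 44.5 CPM in static cells at 3 h. At 12 h it had 52.4, 49.1 and 47.2 CPM in sheared cells, against 42.5, 43.0 and 44.2 CPM in static cells, and at 24 h 62.0, 60.3 and 71.8 CPM in sheared cells, against 50.3, 62.4 and 55.9 CPM in static cells. Sheared libraries lay above static ones at 3 h and 12 h without overlap, and overlapped at 24 h. The estimates were small, 0.16 ± 0.12 at 3 h (SE), 0.20 ± 0.12 at 12 h and 0.20 ± 0.12 at 24 h, and none passed the test (adjusted p = 0.796, 0.308 and 0.250). At 24 h the value was 0.14 without pool 3 (adjusted p = 0.576) and 0.33 without pool 2 (adjusted p = 0.0897). MLX shares 770 of its 2590 exon bases (29.7%) with PSMC3IP on the opposite strand, a gene of 1481 counts over all libraries against 17952 for MLX.

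MLXIP, also called MondoA, is the MLX partner that responds to glucose 6-phosphate and induces TXNIP and ARRDC4, and lies on chromosome 12 from 122078722 to 122147347 on the plus strand. At 3 h it had 87.0, 85.3 and 109 CPM in sheared cells, against 75.4, 87.7 and 110.1 CPM in static cells, and at 12 h 47.8, 60.4 and 68.6 CPM in sheared cells, against 68.1, 70.7 and 74.9 CPM in static cells. At 24 h it had 70.5, 49.1 and 40.1 CPM in sheared cells, against 89.6, 87.7 and 62.8 CPM in static cells. The groups overlapped at each time, but within pools the sheared library was the lower one in all 3 pools at both 12 h and 24 h, by 0.35, 0.83 and 0.64 on the log2 scale at 24 h.

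The log2 fold change of MLXIP was 0.05 ± 0.12 at 3 h (SE; adjusted p = 0.955), -0.29 ± 0.12 at 12 h (0.136) and -0.61 ± 0.12 at 24 h (0.00224). Without the 24 h pool 3 the 24 h value was -0.57 (adjusted p = 0.00955), and the call is lost without the block (-0.59, adjusted p = 0.0983) and in the 6 libraries of 24 h alone (adjusted p = 0.0520). The effect at 24 h minus that at 3 h was -0.66 ± 0.17 (adjusted p = 0.0266). It is lost without any 1 of the 3 h pools (adjusted p = 0.169, 0.0889 and 0.0876 without pool 1, 2 and 3), without 24 h pool 2 (0.0666) and without the block (0.397). In the authors' deposited table the 24 h value is -0.57 with an adjusted p of 0.0901.

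Set per length, MYC had the highest mean level of the 9 transcripts in 5 of the 6 groups. Levels per kb divide CPM by the length of all exons of the gene in GENCODE 29, which need not be the annotation used for counting. MYC had 121.5 ± 16.5 CPM per kb in sheared cells and 52.5 ± 6.24 in static cells at 3 h (SD, n = 3 each), 34.0 ± 4.62 in sheared and 22.7 ± 1.94 in static cells at 12 h, and 40.0 ± 8.89 in sheared and 25.9 ± 3.08 in static cells at 24 h. In static cells at 24 h MXD4 had 30.3 ± 2.05 CPM per kb and stood first, although the ranges of both met, from 28.5 to 32.5 for MXD4 and from 23.7 to 29.4 for MYC.

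The order below MYC differed between times. At 3 h MLX and MAX came next in both groups, at 18.2 and 16.2 CPM per kb in sheared cells and at 16.3 and 14.6 in static cells, and the ranges of MLX and MAX did not meet in either group. MLXIP and MXD4 followed at 9.42 to 9.96 CPM per kb and did not differ beyond their spread. At 12 h MXI1 stood second, at 25.4 ± 7.40 CPM per kb in sheared cells and 21.8 ± 1.83 in static cells. In sheared cells its range of 17.2 to 31.6 met that of MYC, 31.1 to 39.3. In static cells its range of 20.3 to 23.8 met that of MYC, 20.5 to 24.3. At 24 h MLX, MXD4, MXD1 and MXI1 had 25.0, 23.7, 21.5 and 20.9 CPM per kb in sheared cells and did not differ beyond their spread. There the range of MYC, 29.9 to 46.6, met those of MXD1, 7.37 to 39.7, and MXI1, 14.1 to 32.3. MXD3 was last in 5 of the 6 groups, at 2.01 to 4.96 CPM per kb, and MLXIP was last in sheared cells at 24 h, at 5.65 CPM per kb.

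The level of MYC against the sum of its MAX-bound antagonists MXD1, MXD3, MXD4, MXI1 and MNT, all per kb, gives the transcript balance of the network as a description. The ratio was 3.56 ± 0.32 in sheared cells and 1.96 ± 0.40 in static cells at 3 h (SD, n = 3 each). It was 0.53 ± 0.19 in sheared cells and 0.37 ± 0.04 in static cells at 12 h, and 0.51 ± 0.11 in sheared cells and 0.39 ± 0.07 in static cells at 24 h. Only at 3 h was MYC above the sum, in both groups. The sum of antagonists was 34.2 ± 3.77 CPM per kb in sheared cells and 27.2 ± 2.75 in static cells at 3 h, 67.2 ± 13.4 in sheared and 61.0 ± 2.51 in static cells at 12 h, and 80.4 ± 26.3 in sheared and 67.3 ± 8.83 in static cells at 24 h. Per kb, the MAX transcript was below MYC and these antagonists together at each time. Its level was 0.105 ± 0.010 of theirs in sheared cells and 0.183 ± 0.017 in static cells at 3 h, and 0.084 to 0.136 in the mean of the later groups.

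**Figure D3:**
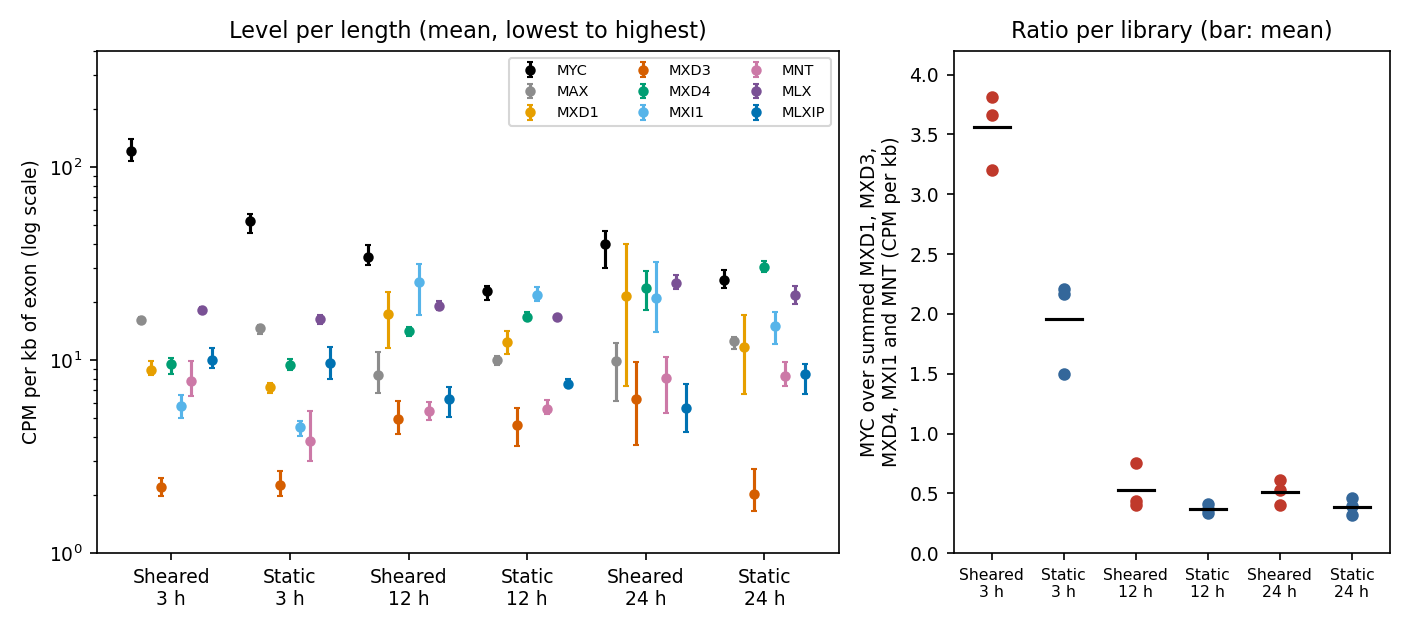
Left, level of the 9 transcripts in CPM per kb of exon on a log axis, as means of 3 libraries with bars from the lowest to the highest library. Right, MYC over the summed MXD1, MXD3, MXD4, MXI1 and MNT levels in each library, with bars at the mean. MYC stands above all others at 3 h, at 121.5 CPM per kb in sheared and 52.5 in static cells, and the ratio is above 1 in the 3 h libraries only.

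Between 12 h and 24 h in suspension, 5 of the 9 members were called in static cells, the repressors MXD4, MXD3, MXI1 and MNT and, beside them, MLX. The repressor MXD1 was not called (-0.094, adjusted p = 0.803). MXD4 rose, with 123 ± 8.35 CPM at 24 h against 67.6 ± 3.60 CPM at 12 h (SD, n = 3 each), a log2 fold change of 0.85 ± 0.12 (SE; edgeR, adjusted p = 5.93e-05). MXD3 fell by 1.19 ± 0.23 on the log2 scale (adjusted p = 8.91e-04), and MXI1, with 60.8 ± 11.5 CPM at 24 h against 88.2 ± 7.42 CPM at 12 h, fell by 0.55 ± 0.15 (adjusted p = 0.00925). MNT rose by 0.56 ± 0.20 (adjusted p = 0.0420) and MLX by 0.37 ± 0.12 (adjusted p = 0.0316). The 3 rises and 2 falls stand against backgrounds of 16.9% and 15.6% of the 14804 genes tested in static cells, and 6 of the 9 genes, those 5 and MAX, did not overlap between 24 h and 12 h, where 41.8% of all genes did not.

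Of those 5 static calls, 3 are lost when single libraries are left out. The MXD4 and MXD3 calls remained under every alternative run. The MXI1 call is lost without static 12 h replicate 1 (adjusted p = 0.0583) and in a fit of all 18 libraries (0.140). The MNT call is lost without static 12 h replicate 1, 2 or 3 (0.134, 0.131 and 0.0553), without static 24 h replicate 1 or 3 (0.0536 and 0.176) and in the fit of all libraries (0.107). The MLX call is lost without static 3 h replicate 1 (0.0532), static 12 h replicate 1 or 2 (0.115 and 0.0980), static 24 h replicate 2 or 3 (0.115 and 0.0595) and with no filter (0.0523). MYC itself did not pass this test, at 0.18 ± 0.13 (adjusted p = 0.312).

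In sheared cells no network gene passed the test between 24 h and 12 h, where 2.55% of 14672 genes did (1.75% higher and 0.797% lower at 24 h). DESeq2 called 1 member, MXD4 (0.75, adjusted p = 0.00861), where it called 1230 genes in all. The edgeR value for MXD4 was 0.74 ± 0.19 (SE; adjusted p = 0.0610), with 96.3 ± 21.9 CPM at 24 h against 57.3 ± 2.96 CPM at 12 h (SD, n = 3 each). It is called without sheared 24 h replicate 2 (adjusted p = 0.0376) or replicate 3 (0.0122). MNT had 0.57 ± 0.26 (adjusted p = 0.231), and was called without sheared 24 h replicate 2 (0.80, adjusted p = 0.0363). MXD4 and MLX were the 2 genes that did not overlap between 24 h and 12 h in sheared cells, against 21.8% of all genes. The test of whether the change between 12 h and 24 h differs between treatments is the 24 h minus 12 h difference in the shear effect, which called MXD3 alone of the 9 genes.

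Of the other genes of the network, MYCN had 0 counts in every library. MYCL, a MYC paralogue, was tested with MGA, a large MAX partner, and MLXIPL, the ChREBP partner of MLX. Of these 3, 1 fell at 24 h, where 8.07% of all genes fell. None was called at 3 h or 12 h, where 1.46% and 10.8% of all genes were. MYCL had 8.50, 6.56 and 4.68 CPM in sheared cells, against 12.0, 17.2 and 14.0 CPM in static cells at 24 h, without overlap, and its log2 fold change was -1.14 ± 0.22 (SE; adjusted p = 0.002), or -0.93 without the 24 h pool 3 (adjusted p = 0.0168). At 3 h it was -0.59 (adjusted p = 0.279) and at 12 h -0.11 (0.803). MYC and MYCL thus stood on opposite sides of 0 at 24 h.

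Of 13 coactivator genes of MYC tested, none was called at 3 h, 2 rose and 1 fell at 12 h, and 1 rose at 24 h, with medians of -0.04, -0.03 and 0.09. Over all genes 1.46% were called at 3 h, 6.29% higher and 4.55% lower at 12 h, and 9.13% higher at 24 h. The 12 h rises were those of RUVBL1 (0.47, adjusted p = 0.0345) and RUVBL2 (0.42, adjusted p = 0.0499), paired ATPases of chromatin complexes, and HCFC1, a cofactor that binds MYC, fell (-0.36, adjusted p = 0.0395). The 24 h rise was RUVBL2 (0.50, adjusted p = 0.0145), which is lost without the 24 h pool 3 (0.43, adjusted p = 0.0691). None of 12 genes of the SIN3, histone deacetylase and NCOR corepressors was called at any time, with medians of 0.03, -0.05 and 0.03.

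Among 14 genes that act on the stability of MYC protein, 1 fell at 3 h, 2 rose at 12 h, and 2 rose and 1 fell at 24 h, where 0.342% of all genes fell at 3 h, 6.29% rose at 12 h, and 9.13% rose and 8.07% fell at 24 h. The 3 of 14 called at 24 h lie near the 17.2% of all genes. AURKA, a mitotic kinase that also shields MYC proteins from degradation, had 78.4 ± 7.76 CPM in sheared cells and 123.5 ± 11.7 CPM in static cells at 3 h (SD, n = 3 each), 141 ± 7.99 CPM in sheared and 107 ± 3.14 CPM in static cells at 12 h, and 99.98 ± 46.4 CPM in sheared and 42.4 ± 9.65 CPM in static cells at 24 h. Its log2 fold change was -0.66 at 3 h (adjusted p = 0.006), 0.40 at 12 h (0.0412) and 1.17 at 24 h (6.78e-06). STUB1, a ubiquitin ligase, rose at 12 h (0.44, adjusted p = 0.0308). CIP2A, which protects MYC from dephosphorylation, rose at 24 h (0.91, adjusted p = 0.0105), and USP36, a nucleolar deubiquitinase of MYC, fell at 24 h (-0.53, adjusted p = 0.0152). The 24 h calls of CIP2A and USP36 are lost without the 24 h pool 3 (0.61 and -0.43, adjusted p = 0.0742 and 0.0860), and no protein was measured.

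Genes that MYC is known to induce were, where called, higher in sheared cells with 1 exception. Of the 47 tested out of 50 listed, 1 rose and none fell at 3 h, 10 rose and none fell at 12 h, and 9 rose and 1 fell at 24 h, against backgrounds of 1.12% higher at 3 h, 6.29% higher at 12 h, and 9.13% higher and 8.07% lower at 24 h. The medians were 0.10, 0.24 and 0.08 on the log2 scale. Without the 24 h pool 3, 15 rose at 12 h, and 5 rose and 1 fell at 24 h. The calls over all genes moved too, from 1647 to 2691 at 12 h and from 2612 to 1550 at 24 h. Whether the counts of induced genes called differ between times was not tested.

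ODC1, the enzyme that starts polyamine synthesis, was the gene that rose at 3 h, with 1445 ± 86.3 CPM in sheared cells and 861 ± 33.6 CPM in static cells (SD, n = 3 each; log2 fold change 0.75 ± 0.14 SE, adjusted p = 0.00914). It was also called at 12 h (0.70, adjusted p = 0.00564). The other genes named at 12 h were BOP1, a factor of large ribosomal subunit assembly (0.84, adjusted p = 0.00174), and FBL, the nucleolar methyltransferase fibrillarin (0.52, adjusted p = 0.0075). At 24 h IMPDH2, an enzyme of guanine nucleotide synthesis, had 346 ± 92.3 CPM in sheared cells and 186 ± 32.1 CPM in static cells (0.87 ± 0.11 SE, adjusted p = 3.87e-05). NPM1, the nucleolar protein nucleophosmin, rose (0.72, adjusted p = 0.000676), although reads of its processed pseudogenes may be shared with it. FBL rose as well (0.57, adjusted p = 0.00202), as did AHCY, an enzyme of the methionine cycle (0.77, adjusted p = 0.00204). TFRC, the transferrin receptor, was the gene that fell (-0.57, adjusted p = 0.00422).

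**Figure D4:**
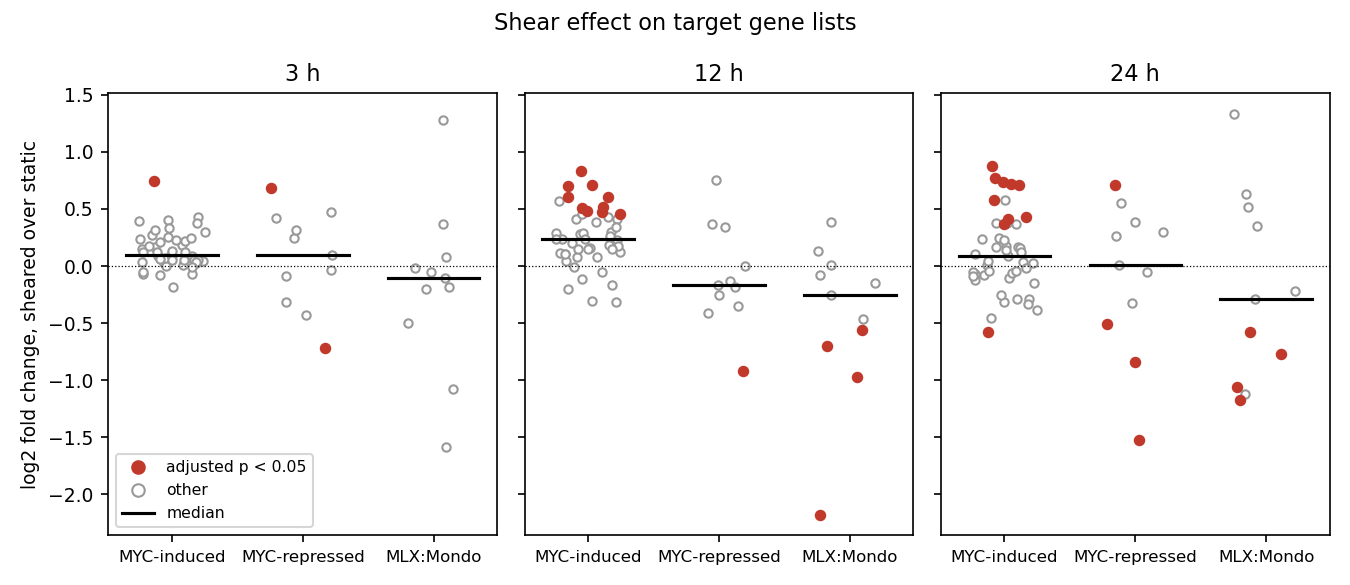
Log2 fold change, sheared over static, of each tested gene that MYC is known to induce (47 genes), to repress (11 genes) or that MLX with MLXIP or MLXIPL is known to induce (11 genes), at 3 h, 12 h and 24 h. Filled points have an adjusted p below 0.05 and bars are medians. The induced genes have 1, 10 and 9 filled points above 0, and the MLX list has 4 filled points below 0 at 12 h and at 24 h.

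Among 11 genes that MYC is known to repress, 1 rose and 1 fell at 3 h, 1 fell at 12 h, and 1 rose and 3 fell at 24 h. The medians were 0.09, -0.16 and 0.01, against the same backgrounds (0.342% lower at 3 h and 4.55% lower at 12 h). Without the 24 h pool 3, 1 rose and 1 fell at 12 h, and none rose and 5 fell at 24 h (median -0.10). Of all genes, that fit called 2691 at 12 h and 1550 at 24 h. CDKN2B, an inhibitor of cyclin-dependent kinases, was the one that fell at each time. It had 51.1 ± 5.19 CPM in sheared cells and 84.7 ± 15.2 CPM in static cells at 3 h (SD, n = 3 each), 45.6 ± 3.22 CPM in sheared and 86.1 ± 0.69 CPM in static cells at 12 h, and 76.9 ± 20.8 CPM in sheared and 136 ± 22.4 CPM in static cells at 24 h. Its log2 fold changes were -0.72 (adjusted p = 0.00124), -0.92 (8.2e-05) and -0.84 (5.89e-05), and -0.79 at 24 h without the 24 h pool 3 (0.00023).

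The other CDK inhibitors of that list went their own ways. CDKN1A rose at 3 h (0.68 ± 0.13 SE, adjusted p = 0.00937) and fell at 24 h (-0.51 ± 0.14, adjusted p = 0.0154). CDKN1B rose at 24 h (0.71 ± 0.23, adjusted p = 0.0493), a call that is lost without the 24 h pool 3 (0.42, adjusted p = 0.302). CEBPA, a transcription factor of differentiated cells, was low in abundance and fell at 24 h, with 2.44 ± 2.27 CPM in sheared cells and 6.03 ± 1.78 CPM in static cells (-1.53 ± 0.39, adjusted p = 0.0131), and by 0.92 without the 24 h pool 3 (adjusted p = 0.0378).

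Genes known as targets of MLX with MLXIP or MLXIPL were called lower in sheared cells at the later times and at none of the times higher. Of 11 tested out of 12 listed, none was called at 3 h, 4 fell at 12 h against a background of 4.55% lower, and 4 fell at 24 h against 8.07%, with medians of -0.10, -0.25 and -0.29. Those that fell at 12 h were ACACA, SCD and FASN, enzymes of fatty acid synthesis and desaturation, and PNPLA3, a lipid droplet protein that lay below 1 CPM in both groups. At 24 h FASN had 518 ± 107 CPM in sheared cells and 1194 ± 375.5 CPM in static cells (SD, n = 3 each; -1.17 ± 0.16 SE, adjusted p = 0.00012), and ACACA (-0.77, 0.000108), SCD (-1.06, 0.00089) and ACLY (-0.58, 0.0304, and -0.89 without the 24 h pool 3) fell as well. All of these are also known as targets of the sterol regulatory element-binding proteins. Without the 24 h pool 3, 2 fell at 3 h, 5 fell at 12 h, and 4 fell and 1 rose at 24 h. Of all genes, that fit called 446 at 3 h, 2691 at 12 h and 1550 at 24 h. With all libraries these were 222, 1647 and 2612.

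TXNIP and ARRDC4, the arrestin-like genes that define the MLXIP response, did not pass the test at any time. TXNIP had 78.6, 88.2 and 86.9 CPM in sheared cells, against 184, 198 and 156 CPM in static cells at 3 h, where every sheared library was below every static one and the log2 fold change was -1.08 ± 0.24 (SE; adjusted p = 0.0530). At 24 h it had 515, 183 and 1439 CPM in sheared cells, against 328, 244 and 583 CPM in static cells, so replicate 3 was the highest in both groups and the groups overlapped (0.52 ± 0.24, adjusted p = 0.164). ARRDC4 gave 0.08 at 3 h, 0.13 at 12 h and 0.63 at 24 h, with adjusted p-values of 0.965, 0.811 and 0.141.

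Of the 7 genes listed around the MYC locus on chromosome 8, 4 were tested. None was called at 3 h, where 1.46% of all genes were. At 12 h 2 rose and 1 fell, and at 24 h 1 rose and 2 fell, against 10.8% and 17.2% of all genes called in either direction. At 12 h the noncoding transcripts PVT1 (0.93 ± 0.15 SE, adjusted p = 0.000954) and CASC8 (1.00 ± 0.22, adjusted p = 0.00827) rose and LRATD2 fell (-0.71 ± 0.10, adjusted p = 0.000353). PVT1 had 16.1 ± 2.04 CPM in sheared cells and 8.39 ± 0.53 CPM in static cells (SD, n = 3 each). At 24 h CASC8 rose (1.35 ± 0.23, adjusted p = 0.000559), and LRATD2 (-0.69 ± 0.10, adjusted p = 0.00015) and POU5F1B fell. POU5F1B is a near copy of POU5F1 that lay at or below 0.921 CPM, and its call is lost without the 24 h pool 3 (adjusted p = 0.227).

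The genes whose levels followed a member most closely were taken from 10157 genes with a mean log2 CPM of at least 3, by Pearson's r of log2 CPM over the 18 libraries. These values share the 3 times and the shear contrast, so they are a description only. For MYC they were GEM (0.943), ETS2 (0.931), C3orf52 (0.927), NRARP and ZFP36L2 (0.92 each). For MNT they were DUSP4 (0.875), ZBTB7A (0.868), PLCXD1 (0.86), JUND (0.845) and MEF2D (0.842). For MXD1 they were IGFBP3 (0.974), NFIL3 (0.971), STK24 (0.968), WDR45B (0.962) and AKAP12 (0.961). For MXD3 they were FYN (0.909), TESMIN and TCTN2 (0.89 each), EMC9 (0.879) and EPHB6 (0.874). For MLXIP they were NDST1 (0.965), GCC1 (0.934), STX3 (0.92), TNFRSF10A (0.915) and AMMECR1L (0.91).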

How the data were processed

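The data are 18 libraries of cytosolic PC-3 RNA, 3 in each of 6 groups. Per the submitters' processing notes, the authors used STAR, DESeq2 and the build GRCh38.p13; how reads were counted, with which annotation and strand, is not given in the sources used here. Counts were taken from the deposited table. It holds the authors' raw, unnormalized counts for each NCBI Gene ID. The authors' deposited tables, 1 per time, give the log2 fold change of sheared cells over static cells with its standard error, and adjusted p-values per the file headers. No reads were analysed here.

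The columns of the 3 h libraries were matched to samples by time and letter, taking the treatment letter to mean what it means at 12 h and 24 h. Symbols came from RefSeq for 27745 of 28395 Gene IDs. Exon lengths and gene positions came from GENCODE 29, and promoter sequences from RefSeq GRCh38.p14. The members and gene lists were chosen with earlier results of these data known. All 9 members are named, with up to 4 called genes of each other list at each time by smallest p, the 5 genes most like each called member (some genes that this rule takes are not reported here), and a few genes outside the rule that were chosen after their values were seen (TFRC, TXNIP, ARRDC4, PRELID1, PSMC3IP and the RNA NEAT1).

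Genes were kept by filterByExpr (minimum count 10, minimum total 15). Scaling by TMM and the robust quasi-likelihood F test (legacy form) were those of edgeR 4.0.16 (R 4.3.3). The model over all 18 libraries took the 9 pools as blocks, added a shear coefficient at each time and left 6 residual degrees of freedom, and differences between times were contrasts of it. Cells at 24 h and 12 h were compared in the 9 libraries of 1 treatment, by group means. The Benjamini-Hochberg adjustment of p-values ran over all genes tested. Each standard error is the absolute log2 fold change divided by the root of F. For log2 CPM the prior count was 2. An exact permutation of 3 against 3 cannot give a p below 0.1, so none was made per gene.

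Per the series design, sheared and static libraries of 1 number within a time share a pool. As a check, the correlation of their deviations from the group means across genes lay between 0.0881 and 0.299 for 3 h, between -0.148 and 0.245 for 12 h, and between 0.379 and 0.504 for 24 h. For libraries of unlike numbers it lay between -0.242 and 0.13 for 3 h, -0.385 and 0.233 for 12 h, and -0.296 and -0.0924 for 24 h. The ranges of like and unlike numbers thus met at 3 h and 12 h, and only at 24 h did the check set the pools apart. Depth was 16400487 to 25862360 counts per library, which limits low transcripts such as MXD3. Alternatives were RLE factors, DESeq2 1.42.0, no filter, no block, each time alone or all libraries together, and each pool or library left out. The fits were tested on simulated counts.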

Additional observations from a re-analysis of the deposited data

Results flagged for a closer look

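Each result given here was marked because the shear effect of a member differed between times by the test of that difference in edgeR. In MXD3 the effect at 24 h minus that at 12 h was 1.457 on the log2 scale (SE 0.305, adjusted p = 0.0327), and at 24 h minus 3 h it was 1.597 (SE 0.31, adjusted p = 0.00393). Its sheared libraries were the higher ones in 3 of 3 pools at 24 h, and in 2 of 3 pools at 12 h and at 3 h. In MNT the effect at 12 h minus that at 3 h was -1.089 (SE 0.225, adjusted p = 0.0223), and at 24 h minus 3 h it was -1.12 (SE 0.224, adjusted p = 0.00487). Its sheared libraries were the higher ones in 3 of 3 pools at 3 h, 2 of 3 at 12 h and 1 of 3 at 24 h. In MLXIP the effect at 24 h minus that at 3 h was -0.6588 (SE 0.169, adjusted p = 0.0266), with the sheared library the lower one in 3 of 3 pools at 24 h and 2 of 3 at 3 h. Because the 3 h libraries carry another batch date, time and date cannot be told apart in the differences that involve 3 h, and the cause of each difference was not tested.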

How the results depend on the processing

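Of 807 values of single members under the alternatives, 720 kept their direction and their side of the threshold, 44 lost a call, 20 gained one and 23 changed sign. The 720 are no measure of how firm the calls are. Leaving out a pool of another time hardly moves a shear estimate in the blocked fit, and many values are of members not called in either fit. The calls of MYC at 3 h and 24 h and of MXD3 at 24 h remained under every alternative run. RLE factors moved no count of calls by over 1.5 times. The cause of the changes below was not tested.

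Without the replicate block, which ignores the pairing by pool, the shear effect called 64 genes at 3 h, 320 at 12 h and 913 at 24 h, with 1, 0 and 2 network members. The differences between times then called 29 genes (12 h minus 3 h), 258 (24 h minus 3 h) and 1 (24 h minus 12 h), with 0, 1 and 0 members, and MNT at 24 h minus 12 h changed sign to 0.00521. No paired analysis was possible for the 24 h against 12 h comparisons because pools of different times are independent.

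With no filter on low counts, 450 genes were called at 3 h, 588 at 12 h minus 3 h, 1513 at 24 h minus 3 h and 323 at 24 h minus 12 h, and the members called numbered 2 at 12 h, 7 at 24 h and 2 at 12 h minus 3 h. The members gained were MXD1 at 12 h (edgeR adjusted p = 0.0131) and MAX, MXD4 and MXI1 at 24 h (0.0405, 0.0332 and 0.0363). MYC was gained at 12 h minus 3 h (0.0240) and at 24 h minus 3 h (0.0144). DESeq2 called 383 genes at 12 h minus 3 h, 189 at 24 h minus 12 h and 1230 in sheared cells at 24 h against 12 h, there with 1 member. The 6 libraries of a time alone called 1466 genes and 4 members at 3 h, 2 members at 12 h, and 761 genes and 2 members at 24 h. Members gained in these fits were MXD1 and MXI1 at 3 h (edgeR adjusted p = 0.0138 and 0.0416) and MXD1 at 12 h (0.0215). All 18 libraries as 6 groups called 3186 genes and 3 members in static cells and 1678 genes and 1 member in sheared cells at 24 h against 12 h.

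With 1 pool left out in turn, the genes called numbered 80 to 446 at 3 h, 361 to 2691 at 12 h, 1550 to 2880 at 24 h, 59 to 635 at 12 h minus 3 h, 431 to 1209 at 24 h minus 3 h and 17 to 185 at 24 h minus 12 h. With 1 library left out, they numbered 2854 to 5795 in static and 0 to 1354 in sheared cells at 24 h against 12 h. The members called numbered 0 to 2 at 12 h, 0 to 1 at 12 h minus 3 h, 0 to 1 at 24 h minus 12 h, 2 to 5 in static cells and 0 to 2 in sheared cells. The members that changed sign, none of them called, ranged as follows. At 3 h MLXIP had -0.0327 to 0.092, MXD3 -0.142 to 0.178 and MXD4 -0.0641 to 0.0469. At 12 h MNT had -0.159 to 0.115 and MXD3 -0.207 to 0.414, and at 24 h MNT had -0.327 to 0.119. In differences between times, MNT had -0.289 to 0.158, MXD1 -0.0356 to 0.487 and MYC -0.072 to 0.215 at 24 h minus 12 h, and MXD3 had -0.183 to 0.441 at 12 h minus 3 h. At 24 h against 12 h, MXD1 had -0.478 to 0.175 in static cells, and in sheared cells MLXIP had -0.421 to 0.0211, MXD1 -0.477 to 0.725 and MXD3 -0.138 to 0.594.

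Depth limits MXD3, the lowest member, and intervals on counts would cover counting error only. There were 3 pools at each time, 1 cell line and 1 exposure. The p-values of the shear effect measure how the difference between sheared and static libraries varies among these pools. Those of 24 h against 12 h measure the spread between libraries of a group. The values are transcript levels of the cytosol, not proteins.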
